A study of Mus musculus with 17 samples.

Results

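The Period genes and the output transcription factors of the molecular clock were followed through testes and forebrain of osteocalcin-deficient mouse pups at postnatal day 1. The set holds 10 of the 55359 genes of the count table. They are the 3 Period genes *Per1*, *Per2* and *Per3*, the 3 PAR-bZIP factors *Dbp*, *Tef* and *Hlf*, their counterpart *Nfil3*, the REV-ERB genes *Nr1d1* and *Nr1d2*, and *Ciart*. The genes were taken by name, but they were chosen by values measured in these same libraries, in which *Per1* was low in the mutant testes, so the contrasts of mutant with WT testes are a description. For these contrasts no p is given. All 10 passed the filter on low counts in both organs.

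The libraries came from male pups of the OcnGK strain, in which the osteocalcin locus was inactivated by homologous recombination in embryonic stem cells on a 129/SvEv background. WT pups had WT mothers, whereas *Ocn*+/- and *Ocn*-/- pups both had *Ocn*-/- mothers. Against WT, the genotype of the pup, that of its mother and the litter therefore changed together and cannot be told apart, and only *Ocn*-/- against *Ocn*+/- compares pups with 1 maternal genotype. There were 8 testes libraries (2 WT, 3 *Ocn*+/- and 3 *Ocn*-/-) and 9 brain libraries (3 per genotype). The labels call the brain tissue hippocampus and the study's text forebrain, the name kept here. Nothing in the labels ties a testis library to a brain library of the same pup, and p-values measure only the spread between these samples.

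In the clock of mammalian cells, CLOCK and BMAL1 bind E-boxes and switch on Period and Cryptochrome genes, whose products then repress CLOCK and BMAL1. The same activators drive output factors. DBP, TEF and HLF activate genes through D-boxes, NFIL3 (also known as E4BP4) represses through the same element, the REV-ERB receptors repress *Bmal1* and *Nfil3* through ROR elements, and CIART (also known as CHRONO) represses CLOCK and BMAL1. *Per1* and *Per2* also respond quickly to cAMP and glucocorticoid signals, and in mice most of these genes cycle over the day in peripheral organs. The study's methods place the collection of tissues of every genotype in the same early-evening window.

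The clock elements that the members carry next to their transcription start are shown because the set is made of genes known to be driven through, or to act through, such elements. The 250 bases before the start of the canonical transcript were searched on both strands in GRCm39 for the E-box CACGTG, the E'-box CACGTT, the D-box letters TTACGTAA or TTATGTAA, the ROR element core TAGGTCA or TGGGTCA, the cAMP element TGACGTCA and its half-site TGACG, which lies inside the full element. Of 21757 promoters searched, 6.26% held the E-box, 4.16% the E'-box, 0.933% the D-box, 5.26% the ROR core, 1.7% the cAMP element and 18% its half-site. The E-box stood in *Per1*, *Tef* and *Ciart*, the E'-box in *Nr1d1*, the D-box in *Per2* and *Per3*, and the ROR core in *Dbp*. *Nfil3*, *Hlf* and *Nr1d2* held none of the 6 motifs in this window, and no member held the cAMP element or its half-site. The windows of *Nfil3*, *Per1*, *Tef* and *Ciart* lay inside the annotated span of their genes, since other transcripts start further upstream. Those upstream starts were not searched. All 250 bases of the *Nfil3* window are annotated as exon, as are 230 for *Nr1d1* and 169 for *Ciart*. The absence of a match thus covers this window only. A match is a description of these letters and not a bound site. The 250 bases before the *Per1* start and 30 bases around a match in each other member follow, 5′ to 3′ on the strand of the gene, with the match in capitals.
*Per1* (chr11:68989018-68989267, plus strand, E-box 22 bases before the start): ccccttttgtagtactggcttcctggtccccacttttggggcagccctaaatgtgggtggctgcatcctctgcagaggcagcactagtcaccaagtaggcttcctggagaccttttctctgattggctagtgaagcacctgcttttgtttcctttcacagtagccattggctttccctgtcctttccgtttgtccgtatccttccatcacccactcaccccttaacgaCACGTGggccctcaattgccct
*Per2* D-box (chr1:91387153-91387182, minus strand, first base 125 before the start): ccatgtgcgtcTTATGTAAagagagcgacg
*Per3* D-box (chr4:151129309-151129338, minus strand, first base 187 before the start): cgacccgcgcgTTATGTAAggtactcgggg
*Per3* D-box (chr4:151129262-151129291, minus strand, first base 140 before the start): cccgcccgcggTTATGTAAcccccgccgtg
*Dbp* RORE core (chr7:45354267-45354296, plus strand, first base 234 before the start): ttggcccgaagTGGGTCAcggtcccgcctc
*Dbp* RORE core (chr7:45354312-45354341, plus strand, first base 189 before the start): ttggccaaataTAGGTCAgtgtcccgcctt
*Tef* E-box (chr15:81695465-81695494, plus strand, first base 138 before the start): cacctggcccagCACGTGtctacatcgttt
*Nr1d1* E'-box (chr11:98666214-98666243, minus strand, first base 72 before the start): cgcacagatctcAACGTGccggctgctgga
*Ciart* E-box (chr3:95789639-95789668, minus strand, first base 100 before the start): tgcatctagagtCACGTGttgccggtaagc
*Ciart* E-box (chr3:95789581-95789610, minus strand, first base 42 before the start): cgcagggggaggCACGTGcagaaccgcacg
*Ciart* E-box (chr3:95789567-95789596, minus strand, first base 28 before the start): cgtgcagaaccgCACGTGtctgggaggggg

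Expected counts summed to 7302401 to 8289015 per testes library and to 6518151 to 14621584 per brain library, with the lowest total in WT forebrain 3. *Bglap*, which encodes osteocalcin, had 0 to 5 counts per library and its near copy *Bglap2* had 0 in all 17, so the targeted gene does not check the genotype labels in these organs. Markers of each organ were found in the libraries labelled as that organ, with 8 forebrain markers summing to 1144 to 1999 CPM in the brain libraries and to at most 21.8 in testes, and with 6 Leydig cell, 6 Sertoli cell and 6 germ cell markers all present in testes. Levels are in CPM, counts relative to the library total after TMM scaling within each organ, and changes are log2 fold changes with standard errors (SE) from edgeR's quasi-likelihood fit. A gene is called where its Benjamini-Hochberg adjusted p over all genes tested is under 0.05.

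**Figure D1:**
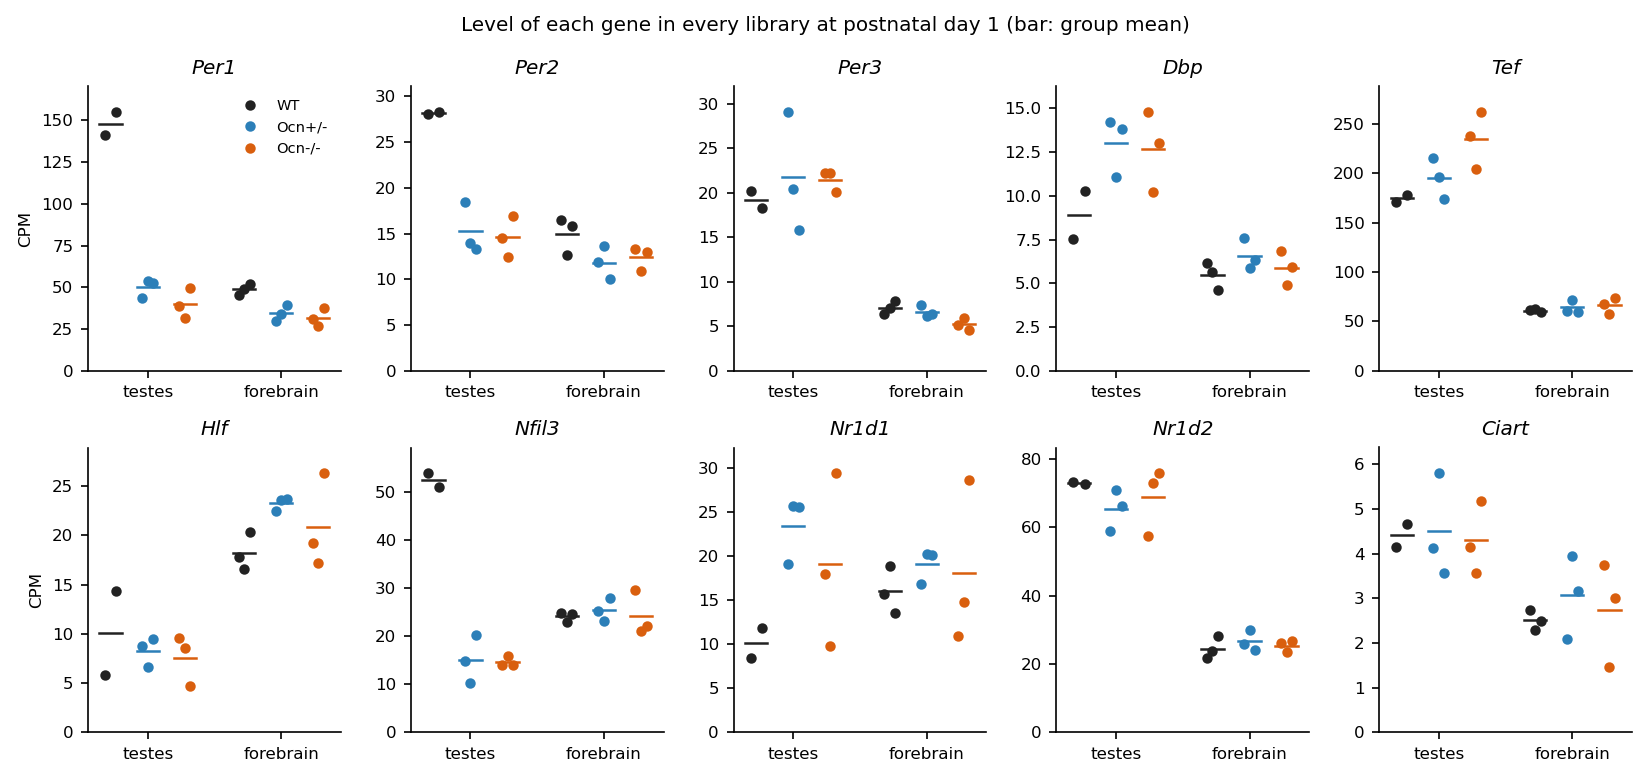
CPM of each of the 10 genes (vertical axes, from 0) in every testes and forebrain library, coloured by genotype, with bars at the group means. CPM were scaled within each organ. The 6 mutant testes lie below both WT testes for *Per1*, *Per2* and *Nfil3*, and the 6 mutant forebrains lie below the 3 WT forebrains for *Per1* only.

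*Per1* and *Per2*, which encode the repressors of the negative limb, were lower in all mutant testes. *Per1* (chr11:68986035-69002300) stood at 141 and 155 CPM in the WT testes, at 43.8, 53.8 and 52.4 in *Ocn*+/- and at 38.8, 31.6 and 49.4 in *Ocn*-/-. The genotypes carrying a mutant allele overlapped each other and neither reached the WT level. The fitted level was 2.96-fold lower in *Ocn*+/- (log2 −1.56, SE 0.16) and 3.7-fold lower in *Ocn*-/- (log2 −1.89, SE 0.16), with 95% intervals of −1.90 to −1.23 and −2.23 to −1.55.

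*Per2* (chr1:91343700-91387069) stood at 28.1 and 28.3 CPM in WT, at 18.5, 14 and 13.3 in *Ocn*+/- and at 14.5, 12.5 and 16.9 in *Ocn*-/- testes. All 6 mutant libraries were again below both WT libraries. The log2 difference was smaller than that of *Per1*, at −0.88 (SE 0.20) in *Ocn*+/- and −0.95 (SE 0.20) in *Ocn*-/-.

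*Per3* (chr4:151081373-151129140), the Period gene that mice can lose with little effect on rhythms, did not follow the other 2. It stood at 20.2 and 18.3 CPM in WT, 29.1, 20.4 and 15.8 in *Ocn*+/- and 22.2, 22.2 and 20.1 in *Ocn*-/- testes. The genotypes overlapped, and the log2 differences were 0.18 (SE 0.22) and 0.16 (SE 0.22). *Per1* thus made up 74.5% and 76.9% of the summed Period CPM in the WT testes and 47.7% to 64.2% in the 6 mutant testes.

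*Nfil3* (chr13:53121245-53137010), the D-box repressor, was low in the mutant testes by about as much as *Per1*. It stood at 53.8 and 51 CPM in WT, at 14.9, 10.3 and 20.2 in *Ocn*+/- and at 14.1, 15.9 and 14 in *Ocn*-/-. The highest mutant library, at 20.2 CPM, was far below the lower WT library. The fitted level was 3.46-fold lower in *Ocn*+/- (log2 −1.79, SE 0.21) and 3.56-fold lower in *Ocn*-/- (log2 −1.83, SE 0.21).

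The PAR-bZIP activators, which compete with NFIL3 for D-boxes, were not lower in step with it. *Tef* (chr15:81686622-81711064) stood at 171 and 178 CPM in WT testes, 215, 196 and 174 in *Ocn*+/- and 238, 204 and 262 in *Ocn*-/-. All 3 *Ocn*-/- libraries were above both WT libraries, whereas *Ocn*+/- overlapped WT. The log2 difference was 0.16 (SE 0.14) in *Ocn*+/- and 0.43 (SE 0.14) in *Ocn*-/-.

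*Dbp* (chr7:45354512-45359627), whose transcript cycles strongly in liver, stood at 7.51 and 10.3 CPM in WT, at 14.2, 11.1 and 13.8 in *Ocn*+/- and at 14.8, 10.2 and 13 in *Ocn*-/- testes. One *Ocn*-/- library lay just under the higher WT library, and the other 5 mutant libraries lay above both. The log2 differences were 0.54 (SE 0.25) and 0.50 (SE 0.25), which became 0.34 and 0.30 without WT testis 1 and 0.81 and 0.77 without WT testis 2. Of the exonic bases of *Dbp*, 15.5% (539) also belong to *Sphk2* on the other strand.

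*Hlf* (chr11:90227221-90281761) could not be placed in testes, because its WT libraries stood at 5.83 and 14.4 CPM and took in all mutants but *Ocn*-/- 3. *Ocn*+/- testes had 8.77, 6.69 and 9.49 CPM and *Ocn*-/- testes 9.6, 8.54 and 4.68. The log2 differences of −0.28 (SE 0.37) and −0.41 (SE 0.37) became 0.53 and 0.40 without WT testis 2.

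Of the REV-ERB receptors, *Nr1d1* (chr11:98658752-98666188), which encodes REV-ERBα, stood at 8.42 and 11.9 CPM in WT testes, at 19.1, 25.7 and 25.6 in *Ocn*+/- and at 18, 9.81 and 29.4 in *Ocn*-/-. The 3 *Ocn*+/- libraries were above both WT libraries, and *Ocn*-/- testis 2 was between them. The log2 differences were 1.21 (SE 0.40) and 0.91 (SE 0.40), and the second became 0.46 without *Ocn*-/- 3. Of the exonic bases of *Nr1d1*, 1694 (52.3%) are shared with *Thra* on the other strand, the counts of *Nr1d1* were not whole in any of the 17 libraries. The study's methods name the NEBNext Ultra RNA kit, which in its standard form does not mark strand, and without strand the reads of the overlap cannot be assigned to one gene or the other. *Thra* itself stood at 219 to 240 CPM in WT testes and 221 to 308 in the mutants, with log2 differences of 0.32 (SE 0.14) and 0.16 (SE 0.14).

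*Nr1d2* (chr14:4230545-4266624), which encodes REV-ERBβ, stood at 73.3 and 72.8 CPM in WT, 58.8, 71 and 66.3 in *Ocn*+/- and 57.4, 73.1 and 75.8 in *Ocn*-/- testes. The log2 differences were small, −0.16 (SE 0.14) and −0.09 (SE 0.14). *Ciart* (chr3:95785815-95789991) had the fewest counts of the set, with 3.57 to 5.8 CPM in the 8 testes, and its log2 differences of 0.03 and −0.04 had SEs of 0.35.

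Counted over the set, 3 of the 10 genes were called in *Ocn*+/- and 3 in *Ocn*-/- testes, in each case *Per1*, *Per2* and *Nfil3*, all lower. Over all genes tested, 8.25% were called in *Ocn*+/- testes and 4.36% called lower, and in *Ocn*-/- 5.64% were called and 3.09% called lower. The 6 mutant testes were all below both WT testes for these 3 members and all above for none, while 26% of all genes tested had mutant and WT testes that did not overlap. With each library left out in turn, the genes called over all tested ranged from 118 to 2019 in *Ocn*+/- (1350 with all libraries) and from 85 to 1559 in *Ocn*-/- (922), with the fewest without WT testis 2. *Per2* was not called without either WT library in both genotypes, without *Ocn*+/- 3 in the first and without *Ocn*-/- 1 in the second. Since the choice of the genes used these contrasts, nothing is read from the counts. Without the filter on low counts, *Nr1d1* was also called in both genotypes and *Tef* in *Ocn*-/-, which gave 4 and 5 members. DESeq2 added *Nr1d1* in *Ocn*+/- and *Tef* in *Ocn*-/-, and library size alone added *Tef* in *Ocn*-/-. Leaving out *Ocn*-/- 2 added *Nr1d1* in both and *Tef* in *Ocn*-/-, and leaving out *Ocn*-/- 3 added *Nr1d1* in *Ocn*+/-. In these bulk samples, fewer cells of a type and less RNA per cell cannot be told apart.

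**Figure D2:**
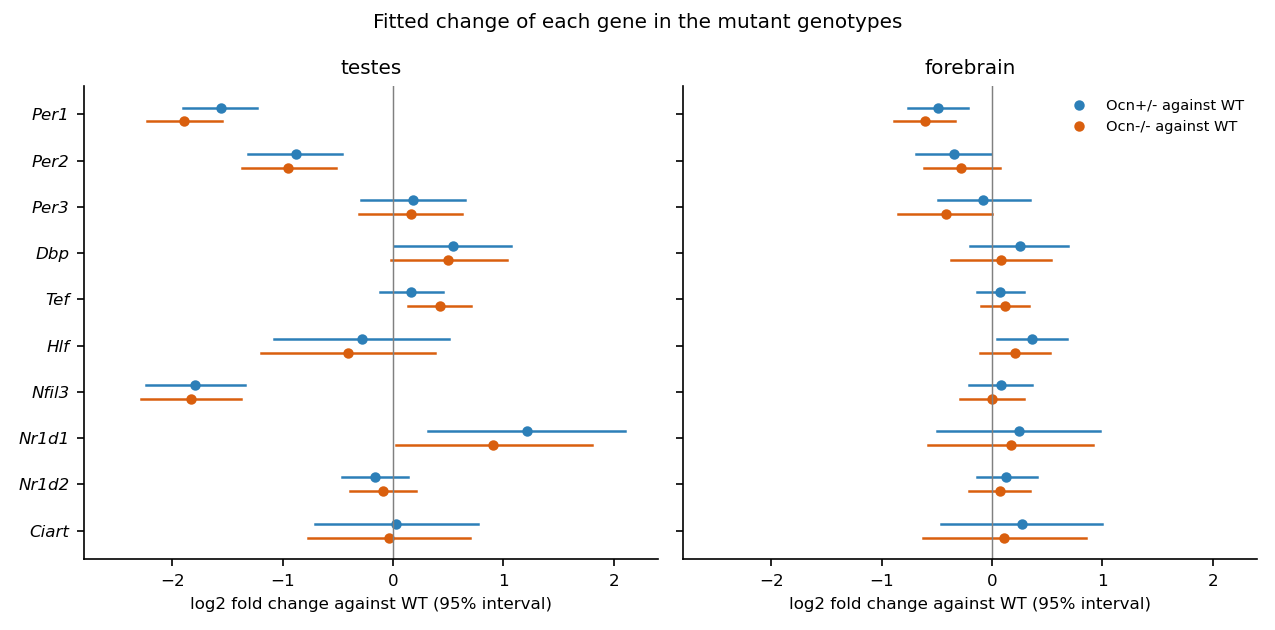
Fitted log2 fold change against WT (horizontal axis) of the 10 genes in testes (left) and forebrain (right), for *Ocn*+/- and *Ocn*-/- pups, with 95% intervals. In testes *Per1*, *Per2* and *Nfil3* lie left of 0 and *Nr1d1* right of it, and in forebrain *Per1* lies left of 0 at −0.49 and −0.61.

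Between the 2 mutant genotypes, whose mothers were alike, no member was called in either organ. In testes the difference of *Ocn*-/- from *Ocn*+/- was −0.32 (SE 0.15, adjusted p = 0.426, edgeR) for *Per1*, 0.27 (SE 0.12, adjusted p = 0.414) for *Tef*, −0.06 (SE 0.19) for *Per2* and −0.04 (SE 0.21) for *Nfil3*. The 95% interval for *Per1* ran from −0.64 to −0.01 and that for *Nfil3* from −0.48 to 0.39. Of all genes tested in testes, 0% were called by edgeR's quasi-likelihood test, 1881 had an unadjusted p under 0.05, DESeq2 called 76 and edgeR without the filter 252. Of the 10 members 2, *Per1* and *Tef*, had an unadjusted p under 0.05 in testes and 0 in forebrain, and DESeq2 called 0 in both. In forebrain 0.00622% of all genes were called, a single gene, and the *Per1* difference was −0.12 (SE 0.13, adjusted p = 0.999) with an interval of −0.39 to 0.15.

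In forebrain *Per1* fell as well, by less. It stood at 45.5, 49 and 52.1 CPM in WT, at 30.1, 34.1 and 39.7 in *Ocn*+/- and at 31.2, 26.7 and 37.7 in *Ocn*-/-. All 6 mutant libraries lay below the 3 WT libraries. The decrease was 1.41-fold in *Ocn*+/- (log2 −0.49, SE 0.13, edgeR adjusted p = 0.0402) and 1.53-fold in *Ocn*-/- (log2 −0.61, SE 0.13, adjusted p = 0.0122). The first call was lost without any 1 of *Ocn*+/- 1 (adjusted p = 0.145), *Ocn*+/- 2 (0.109), WT 1 (0.0555), WT 2 (0.0928) or WT 3 (0.154) and with scaling by library size alone (0.106), and the second without *Ocn*-/- 2 (0.0691) or WT 3 (0.0662), the library of lowest depth. The study also measured *Per1* by qPCR in newborn forebrain of this strain. Its text describes core clock expression there as alike in deficient and WT pups.

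*Per2* was at 16.5, 12.7 and 15.8 CPM in WT, 11.9, 13.6 and 10 in *Ocn*+/- and 13.3, 10.9 and 13 in *Ocn*-/- forebrain. The groups overlapped through WT forebrain 2. The log2 differences of −0.35 (SE 0.16, adjusted p = 0.238) and −0.28 (SE 0.16, adjusted p = 0.336) did not pass, nor did those of *Per3*, −0.08 (SE 0.20) and −0.42 (SE 0.20, adjusted p = 0.233), with 6.41 to 7.83 CPM in WT and 4.59 to 7.44 in the mutants.

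*Nfil3* was called in neither genotype in the brain. Its forebrain levels were 24.9, 22.9 and 24.5 CPM in WT, 25.2, 23.2 and 27.9 in *Ocn*+/- and 29.5, 21 and 22.1 in *Ocn*-/-. The groups overlapped, the log2 differences were 0.08 (SE 0.14) and −0.00 (SE 0.14), and the 95% intervals were −0.21 to 0.36 and −0.29 to 0.29.

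No other output factor was called in forebrain. *Tef* had 59.1 to 62.4 CPM in WT and 57.9 to 73.5 in the mutants, with log2 differences of 0.07 (SE 0.10) and 0.12 (SE 0.10). *Hlf* had 16.6 to 20.3 CPM in WT, 22.5 to 23.7 in *Ocn*+/- and 17.2 to 26.3 in *Ocn*-/-, and its difference in *Ocn*+/- (0.36, SE 0.15, adjusted p = 0.187) did not pass although the 3 libraries were above all WT libraries. *Dbp* (0.25 and 0.08), *Nr1d2* (0.13 and 0.07), *Nr1d1* (0.24 and 0.17) and *Ciart* (0.27 and 0.11) did not pass either, and *Ocn*-/- forebrain 3, at 28.7 CPM, was the only library with *Nr1d1* above 20.3.

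In each mutant genotype, 1 of the 10 genes was called in forebrain, against 3.89% of all genes called and 2.68% called lower in *Ocn*+/- and 4.85% and 3.05% in *Ocn*-/-. *Per1* was the 1 member whose mutant and WT forebrains did not overlap, a state found in 15.4% of all genes tested there.

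The effect of the mutant genotypes was compared between organs in 1 fit over all 17 libraries, as the average of the *Ocn*+/- and *Ocn*-/- changes in testes minus that in forebrain. Its testes side was known when the genes were chosen, so the values are a description and no p is given. The difference was −1.18 (SE 0.19, 95% interval −1.58 to −0.79) for *Per1* and −1.86 (SE 0.22, −2.32 to −1.41) for *Nfil3*. It was −0.61 (SE 0.23) for *Per2* and 0.85 (SE 0.52) for *Nr1d1*. *Per1* and *Nfil3* were the 2 of 10 members called, beside 2.96% of all genes tested, and nothing is read from these calls.

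The ratio of D-box activators to their repressor was taken within each library. The summed CPM of *Dbp*, *Tef* and *Hlf* was 3.42 and 3.98 times that of *Nfil3* in the WT testes, 16, 20.7 and 9.74 times in *Ocn*+/- and 18.6, 14 and 19.9 times in *Ocn*-/-. The mutant testes did not overlap WT in this ratio. The activators alone summed to 184 and 203 CPM in WT and to 197 to 280 in the mutants, which overlapped. *Tef* made up most of these sums, with 171 and 178 CPM in WT testes and 174 to 262 in the mutants. The ratio thus mainly sets *Tef* against the low *Nfil3*. In forebrain the ratio was 3.42 to 3.69 in WT and 3.16 to 4.8 in the mutants, close to that of the WT testes. The 3 Period genes together summed to 189 and 201 CPM in WT testes and 66.3 to 91.4 in mutant testes, and to 68.5 to 75.8 in WT and 43.5 to 56.1 in mutant forebrain. The summed REV-ERB CPM overlapped between genotypes in testes. In forebrain it was 37.4 to 42.7 in WT, 42.8 to 50.4 in *Ocn*+/- and 37 to 55.5 in *Ocn*-/-, so that *Ocn*+/- lay just above WT and *Ocn*-/- overlapped it.

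**Figure D3:**
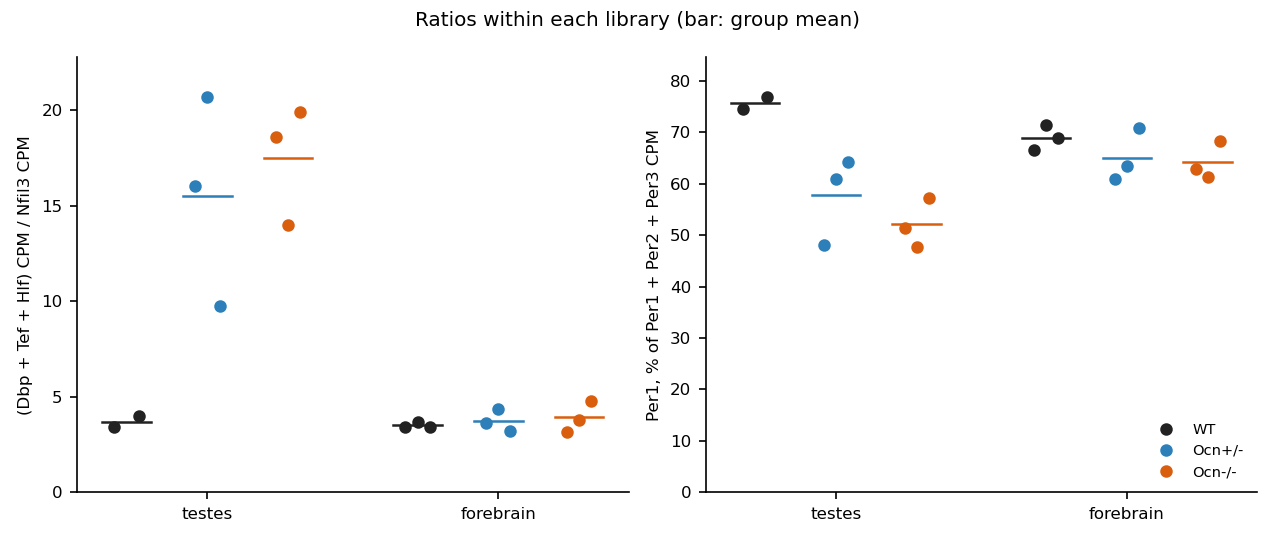
Left, summed CPM of *Dbp*, *Tef* and *Hlf* divided by the CPM of *Nfil3* in each library. Right, *Per1* as a percentage of the summed CPM of the 3 Period genes. Bars are group means, and the 6 mutant testes stand at 9.74 to 20.7 on the left against 3.42 and 3.98 in WT testes.

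Levels in WT pups were ordered per kb of the canonical transcript, with CPM scaled over all 17 libraries. In testes *Tef* was highest at 36.5 CPM per kb, followed by *Nfil3* (20.4) and *Per1* (19.6), whose ranges overlapped, and by *Nr1d2* (11.5). *Dbp* (4.32) and *Per2* (4.29) overlapped, as did *Nr1d1* (3.31) and *Per3* (2.84), and *Ciart* (1.98) and *Hlf* (1.54) closed the order with overlapping ranges. In forebrain *Tef* (15.9), *Nfil3* (11.7) and *Per1* (8.1) again led. *Nr1d1* (6.53) overlapped *Per1* and stood just above *Nr1d2* (4.8), while *Hlf* (3.47), *Dbp* (3.31) and *Per2* (2.85) were not separated along the order, nor were *Ciart* (1.41) and *Per3* (1.31). *Thra*, which shares exonic bases with *Nr1d1*, stood at 788 to 899 CPM in WT forebrain and 219 to 240 in WT testes. The part of *Thra* reads in the *Nr1d1* levels was not tested.

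*Per1*, *Per2*, *Per3*, *Tef*, *Nfil3* and *Nr1d2* were called higher in WT testes than in WT forebrain by edgeR, and *Hlf* lower. The WT testes were part of the values that chose the genes, so the differences are a description and no p is given. They were 1.28 (SE 0.16) for *Per1*, 0.59 (SE 0.19) for *Per2*, 1.14 (SE 0.22) for *Per3*, 1.19 (SE 0.13) for *Tef*, 0.80 (SE 0.18) for *Nfil3*, 1.27 (SE 0.15) for *Nr1d2* and −1.16 (SE 0.30) for *Hlf*. *Per2* was not called without WT forebrain 2 or with the replicate block, nor was *Hlf* without WT testis 1 (difference −0.66). Leaving out each library in turn gave −1.96 to −0.66 for *Hlf*. *Dbp* (0.37), *Nr1d1* (−0.99) and *Ciart* (0.48) were not called, but library size alone called *Dbp*, and DESeq2 and the fits without forebrain *Ocn*-/- 1 or 3 or testes *Ocn*-/- 2 or 3 called *Nr1d1*, which stood at −0.10 with the replicate block. *Thra*, which overlaps *Nr1d1*, differed by −2.20 (SE 0.13), and its part in the *Nr1d1* difference was not tested. The 7 calls among 10 members stand beside 71.1% of all genes called in this comparison, and scaling by library size alone moved the median of all genes by 0.32 toward testes.

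**Figure D4:**
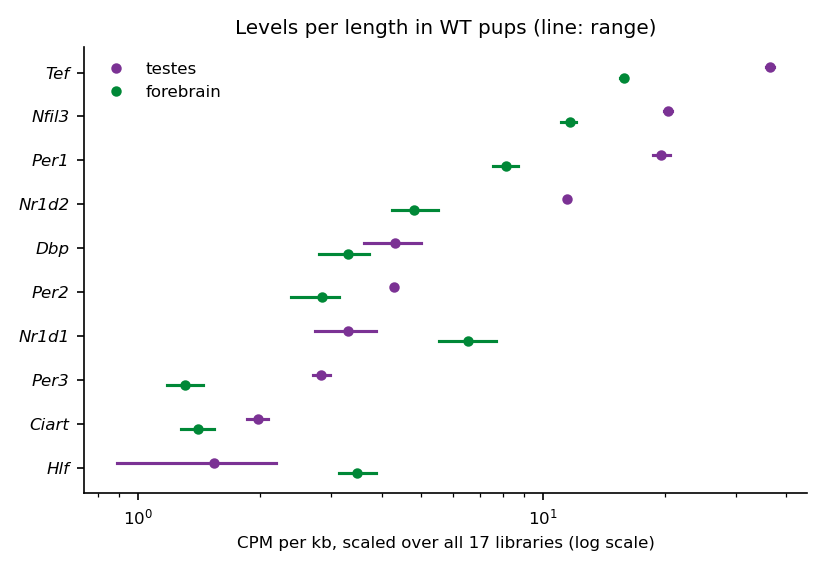
CPM per kb of canonical transcript (horizontal log axis) in WT testes (2 libraries) and WT forebrain (3 libraries), with points at the means and lines over the range. *Tef* is highest in both organs, and *Hlf* and *Nr1d1* are the members with the higher mean in forebrain. *Nr1d1* shares 52.3% of its exonic bases with *Thra* on the other strand.

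Of 21 other clock genes, 20 were tested in each organ. In testes 1 was called lower and 1 higher in each mutant genotype, with a median log2 difference of −0.07 in both, against 0.01 and −0.01 over all genes. Of the 20, 5 in *Ocn*+/- and 10 in *Ocn*-/- testes had an unadjusted p under 0.05, beside 4235 and 3760 of all 16361 genes. DESeq2 called 2 and 3 of the 20, as did edgeR without the filter. Over all genes tested, edgeR called 8.25% and 5.64% in testes and 3.89% and 4.85% in forebrain. *Usp2*, a deubiquitinase that acts on clock proteins, stood at 32 and 28.1 CPM in WT testes and 13 to 16.5 in the mutants (log2 −0.99, SE 0.19, and −1.07, SE 0.19). *Timeless*, better known for its part in DNA replication, stood at 34.1 and 32.8 CPM in WT and 55.3 to 66 in the mutants (0.87, SE 0.14, and 0.94, SE 0.14). In forebrain edgeR called 0 of the 20 in each genotype, with medians of 0.08 and 0.16 against 0.01 and 0.01 over all genes. There 5 in *Ocn*+/- and 6 in *Ocn*-/- had an unadjusted p under 0.05, beside 3267 and 3489 of all 16076 genes. DESeq2 called 0 and 1, as did edgeR without the filter. The core activators *Bmal1* and *Clock* were not called by edgeR in either organ. In forebrain *Clock* stood at 54.5 to 59.2 CPM in WT and 43.7 to 50.7 in the mutants. Its log2 differences were −0.18 and −0.28 (SE 0.09 for each, edgeR adjusted p = 0.277 and 0.0817). *Cry1* stood there at 17.9 to 23.1 CPM in WT and 24.7 to 28.1 in the mutants (0.38 and 0.33, adjusted p = 0.088 and 0.118). Mutants and WT overlapped for neither gene, a state found in 15.4% of all genes tested in forebrain.

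The genes most like *Per1* across the 8 testes, by the root-mean-square difference between log2 CPM centred on each gene's mean, were *Nr4a1* (0.177), *H1f2* (0.192), *Pde4d* (0.213), *Ldha* (0.234) and *Prelid2* (0.241), of 12498 genes compared. *Nr4a1* encodes an orphan nuclear receptor of the immediate-early class, and *Pde4d* a phosphodiesterase that breaks down cAMP. Within the set, *Nfil3* came nearest at rank 34 (0.371) and *Per2* at rank 66 (0.43). The likeness is a description over 8 libraries that all these genes share.

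Other gene lists were counted beside these members. Over all genes tested, 4.36% and 3.09% were called lower in *Ocn*+/- and *Ocn*-/- testes and 2.68% and 3.05% in forebrain. Of 15 hypoxia-induced genes, 9 were called lower in *Ocn*+/- and 10 in *Ocn*-/- testes, and 8 of the 14 tested were called lower in each in forebrain. The median differences were −1.05 and −1.09 in testes and −0.50 and −0.55 in forebrain, where all genes had medians within 0.01 of 0, and the summed level was 1795 to 2168 CPM in WT and 862 to 925 in mutant testes, and 1099 to 1292 and 814 to 883 in forebrain. The mutant and WT libraries did not overlap in this sum in either organ, and the part of these genes in the *Per1* values was not tested.

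Immediate-early genes (16) were called lower for 5 and 6 members in *Ocn*+/- and *Ocn*-/- testes and for 1 and 2 in forebrain. Their sum was 803 and 804 CPM in WT testes and 324 to 386 in 5 of the mutants, but 823 in *Ocn*+/- testis 3. The medians were −0.28 and −0.92 in testes and 0.02 and −0.34 in forebrain. In forebrain the sum was 343 to 367 CPM in WT, 292 to 389 in *Ocn*+/- and 296 to 322 in *Ocn*-/-. The part of these genes in the *Per1* values was not tested. Of 11 glucocorticoid-induced genes, 3 were called lower and 2 higher in *Ocn*+/- and 3 lower in *Ocn*-/- testes, with medians of −0.11 and 0.01 and sums of 550 to 635 CPM in WT, 458 to 578 in *Ocn*+/- and 495 to 533 in *Ocn*-/-. In forebrain 2 and 1 were called lower, with medians of −0.19 and −0.36 and sums of 353 to 404 CPM in WT and 296 to 324 in the mutants.

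Cell type markers were summed beside these values and counted where edgeR called them against WT. The 6 Leydig cell markers summed to 1691 and 1772 CPM in WT testes and to 714 to 1249 in the mutants, with 1 called lower in each genotype and medians of −1.08 and −1.14. Sertoli cell markers (915 to 1015 against 886 to 1245 CPM, 1 called higher in each genotype) and germ cell markers (308 to 359 against 289 to 344 CPM, 0 called) overlapped. Erythroid markers summed to 2597 to 6861 CPM in WT and 865 to 3941 in mutant testes, with 0 of 5 called. In forebrain they summed to 522 to 719 CPM in WT, 356 to 407 in *Ocn*+/- and 486 to 599 in *Ocn*-/-, with 3 of 5 called lower in *Ocn*+/- and 0 in *Ocn*-/-, so that *Ocn*+/- did not overlap WT. The 8 forebrain markers summed to 1559 to 1999 CPM in WT and 1144 to 1471 in the mutants, with 0 called in *Ocn*+/- and 1 called lower in *Ocn*-/- and medians of −0.20 and −0.25. None of 6 olfactory bulb or 6 choroid plexus markers was called. Olfactory bulb markers summed to 38.4 to 54.8 in WT, 117 to 146 in *Ocn*+/- and 39.1 to 102 in *Ocn*-/-, and choroid plexus markers to 579 to 742, 576 to 868 and 323 to 538. Macrophage markers summed to 103 to 111 CPM in WT testes and 51.6 to 140 in the mutants, muscle markers to 737 to 903 and 567 to 811, and adipocyte markers to 13.8 to 17.9 and 17.3 to 24.4. Of these, 1 macrophage marker was called higher in *Ocn*+/-, 1 of 2 adipocyte markers lower in each genotype and 0 of 4 muscle markers. In forebrain the macrophage sum was 80.6 to 82.7 in WT and 73.3 to 98.3 in the mutants, with 1 called higher in each genotype, the hippocampal sum 235 to 318 and 205 to 375, with 0 called, and hindbrain and midbrain markers reached at most 3.56. None of the Leydig, Sertoli, germ cell and forebrain lists held a defining marker at 0 in its own organ, and the part of the cell makeup in the *Per1*, *Per2* and *Nfil3* values was not tested.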

How the data were processed

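RNA-seq libraries of testes and forebrain from male pups at postnatal day 1 (17 in all) were grouped by tissue and genotype from their labels. The submitters' processing notes name Trim Galore 0.6.6, STAR 2.7.8a, RSEM 1.3.3 and GRCm39. The authors deposited 1 table of RSEM expected counts per gene, without normalization. Read assignment by RSEM is thus part of the values, and 9625 genes hold a value that is not whole. The strand setting of the counting is not given in the sources used here. Symbols and positions came from a GENCODE mouse release on GRCm39, which holds 54749 of the 55359 identifiers.

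Expected counts were rounded and fitted in R 4.3.3 with edgeR 4.0.16 (TMM, filterByExpr by group, robust quasi-likelihood tests, two-sided), each organ alone with its 3 genotypes and both organs together for comparisons between organs. CPM were scaled by TMM. Alternatives were RLE size factors, library size alone, no filter, DESeq2 1.42.0, a replicate block (the replicate number as a term) and each library left out in turn. The fits were tested on simulated data, where 72% of genes changed 2-fold and 100% of those changed 4-fold were found in *Ocn*+/- against WT testes (16064 genes), with 11 false calls. The simulation gave every gene the same spread, changed 200 genes and held no litter effect. Its rates check the code and need not hold for the real libraries. All 10 members are named, with every other clock gene called against WT and the 5 genes of nearest pattern to *Per1* (mean CPM of at least 5). The members, the lists of genes and the cell type markers were chosen with earlier results of these data known. Counting limits the precision most for *Ciart*, with 14 to 51 counts per library. Promoter sequences were read from GRCm39.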

Additional observations from a re-analysis of the deposited data

Results flagged for a closer look

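*Per1* differed between the organs in its response to the mutant genotypes. The mean mutant effect was lower in testes than in forebrain by a log2 difference of −1.18 (SE 0.19). *Per1* was below every WT library of its own organ in 6 of 6 mutant testes and 6 of 6 mutant forebrains. Mutants and WT did not overlap for 26% of all genes tested in testes and 15.4% in forebrain. *Nfil3* differed more than *Per1* between the organs, by −1.86 (SE 0.22), being below both WT libraries in 6 of 6 mutant testes and overlapping WT in forebrain. Both passed the threshold in edgeR's fit over both organs, as did 2.96% of all genes tested (526, and 93 to 1070 with each library left out in turn). The genes were chosen with the testes values known, so no p is given and the differences are not independent evidence.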

How the results depend on the processing

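No filter on low counts gave 5 called members in *Ocn*-/- against WT testes in place of 3, and scaling by library size alone gave 0 in *Ocn*+/- against WT forebrain in place of 1. With each library left out in turn the called members numbered 2 to 5 in *Ocn*-/- testes, 0 to 1 in *Ocn*+/- forebrain and 0 to 1 in *Ocn*-/- forebrain. They numbered 2 to 4 in *Ocn*+/- testes, 6 to 8 between WT organs and 2 in the comparison of effects between organs. Testes *Ocn*-/- without replicate 2 gave the 5. The lost calls in forebrain are named with *Per1*.

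Over all 1250 member values under an alternative, 1169 kept direction and call, 16 became called, 17 lost the call and 48 changed sign. Of the sign changes, 0 were of a value called in the reported fit. Library size alone turned *Ciart* in *Ocn*-/- testes to 0.044, *Per3* in *Ocn*+/- forebrain to 0.006 and *Nfil3* in *Ocn*-/- forebrain to 0.099, and no filter turned the last to 0.012. Leaving out libraries gave, in *Ocn*+/- against WT testes, −0.080 to 0.362 for *Per3*, −0.786 to 0.525 for *Hlf* and −0.181 to 0.171 for *Ciart*. In *Ocn*-/- against WT testes it gave −0.910 to 0.402 for *Hlf*, −0.164 to 0.049 for *Nr1d2* and −0.190 to 0.080 for *Ciart*. In *Ocn*-/- against *Ocn*+/- testes it gave −0.179 to 0.111 for *Per2*, −0.204 to 0.256 for *Per3*, −0.155 to 0.098 for *Dbp*, −0.321 to 0.128 for *Hlf*, −0.250 to 0.221 for *Nfil3*, −0.751 to 0.013 for *Nr1d1*, −0.004 to 0.198 for *Nr1d2* and −0.223 to 0.163 for *Ciart*. In *Ocn*+/- against WT forebrain it gave −0.013 to 0.124 for *Tef*. In *Ocn*-/- against WT forebrain it gave −0.040 to 0.202 for *Dbp*, −0.166 to 0.094 for *Nfil3*, −0.326 to 0.424 for *Nr1d1*, −0.022 to 0.165 for *Nr1d2* and −0.181 to 0.418 for *Ciart*. In *Ocn*-/- against *Ocn*+/- forebrain it gave −0.036 to 0.179 for *Per2*, −0.039 to 0.132 for *Tef*, −0.243 to 0.017 for *Nfil3*, −0.567 to 0.183 for *Nr1d1*, −0.137 to 0.024 for *Nr1d2* and −0.456 to 0.144 for *Ciart*. In the difference of effects between organs it gave −1.148 to 0.154 for *Hlf*. No direction is given for these values.

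Same-numbered libraries did not deviate together (r −0.09 to 0.09 in 7 pairs of testes and −0.04 to 0.15 in 9 of forebrain), so the numbers do not pair the samples. With the replicate block, called members stayed 3, 3 and 0 in testes and 1, 1 and 0 in forebrain, 2 between the organs' effects and 6 in place of 7 between WT organs (*Per2*, adjusted p = 0.12), where *Nr1d1* went from −0.99 to −0.10 and *Per3* from 1.14 to 0.75, and *Per3* in *Ocn*-/- against *Ocn*+/- testes became 0.012. The cause of none of these shifts was tested.

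Counts over all genes moved more. No filter called 2149 genes against 1350 in *Ocn*+/- testes, 1763 against 922 in *Ocn*-/- testes, 252 against 0 between mutant testes, 1265 against 625 and 1502 against 780 in forebrain, 34 against 1 between mutant forebrains and 1023 against 526 between organs' effects. DESeq2 called 76 between mutant testes, 5 between mutant forebrains and 1027 between organs' effects, and library size alone 369 in *Ocn*+/- forebrain. Leaving out libraries gave 118 to 2019, 85 to 1559 and 0 to 47 in testes, 183 to 830, 189 to 919 and 1 to 2 in forebrain and 93 to 1070 between organs' effects, with the lowest counts in testes against WT without WT testis 2 and in forebrain against WT without WT forebrain 3.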
